A study of Mus musculus with 2 samples.

Results

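Nnt, Pla2g2a and Tpsab1 are 3 genes known for loss or splice variants in C57BL/6 mice, and their remaining messages were followed in mammary gland of that strain. They were taken by symbol from 43346 genes in the deposited tables, and all 3 were found. The animals were C57BL/6J, the widely used inbred strain, and were 8 weeks old. Each of the 2 libraries is labelled as a biological replicate made from littermates of both sexes, and both carry the same donor label, so whether they come from separate animals is not given. Both fall in 1 group with no contrast, so no test between conditions was possible and no p-value is given. Values are for replicate 1 and then replicate 2, and levels are in TPM, a share of all transcripts that is corrected for length. Both libraries carry the same strain label, and no other strain was analysed here. Whether these animals carry the variants was not tested, so each variant named below stands for what is known of the strain.

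Nnt encodes the nicotinamide nucleotide transhydrogenase, a proton-driven enzyme of the inner mitochondrial membrane that makes NADPH for peroxide removal and biosynthesis. C57BL/6J mice are known to carry an in-frame deletion of consecutive exons of Nnt and to lack the active enzyme. Pla2g2a encodes the secreted group IIA phospholipase A2, which cuts membrane phospholipids. It is best known in mouse from Paneth cells of the intestine and as the Mom1 modifier of intestinal polyps, and C57BL/6 strains carry a frameshift in it. Tpsab1 encodes the mast cell tryptase mMCP-7, a serine protease stored in granules, and C57BL/6 mice carry a point mutation at the border of exon 2 and intron 2. The reference genome comes from C57BL/6J itself, so exons deleted in the strain have no entry in the annotation and cannot receive reads.

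The transcript sequences below, from GENCODE M21 on GRCm38 (mm10), show the places at which the 3 genes are altered or joined. The first pair shows Nnt joins that cross the deletion, on the minus strand of chromosome 13. Exons are numbered as in the transcript Nnt-202, and the deleted exons lay between its exons 7 and 8, a position known from the full-length protein and not from the files. Capitals mark the downstream exon, exon 8 in the first line (chr13:119374745-119381705) and exon 10 in the second (chr13:119370116-119381705), which skips exons 8 and 9.
Nnt-202: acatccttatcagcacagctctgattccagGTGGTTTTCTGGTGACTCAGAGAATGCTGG
Nnt-201: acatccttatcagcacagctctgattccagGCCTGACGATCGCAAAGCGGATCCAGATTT

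The second pair shows how the annotation handles the frame of Pla2g2a on the plus strand (chr4:138832983-138833036). Capitals in Pla2g2a-203 mark the 4 bases that the coding model Pla2g2a-201 leaves out, and capitals in Pla2g2a-201 mark the bases that become neighbours.
Pla2g2a-203: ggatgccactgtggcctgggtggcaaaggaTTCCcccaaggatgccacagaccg
Pla2g2a-201: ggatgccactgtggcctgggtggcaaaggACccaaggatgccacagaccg

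The last pair is exon 2 of Tpsab1 (minus strand, chr17:25345050-25345215) and exon 2 of its paralog Tpsb2 (plus strand, chr17:25366760-25366925), the gene of the mast cell tryptase mMCP-6. Capitals mark the letters GTGAG that begin after 68 bases, where a junction inside the exon was seen. On the strand shown, these letters occurred at that place only in each exon, and on the other strand 1 time in each. Of 883 annotated coding-gene exons of 166 bases, 17.9% hold them on the transcript's strand and 29.8% on either, so a match describes letters and not a splice site.
Tpsab1: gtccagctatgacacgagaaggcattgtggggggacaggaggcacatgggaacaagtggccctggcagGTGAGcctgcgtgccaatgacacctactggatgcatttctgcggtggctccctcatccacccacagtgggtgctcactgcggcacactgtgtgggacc
Tpsb2: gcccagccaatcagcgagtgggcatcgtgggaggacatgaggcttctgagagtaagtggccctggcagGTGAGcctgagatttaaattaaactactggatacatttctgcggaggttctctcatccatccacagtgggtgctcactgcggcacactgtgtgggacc

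The libraries held 56323489 and 42400470 expected fragments over genes. Replicate 1 contained more RNA of muscle and brown fat: 4 skeletal muscle markers summed to 20313 TPM in replicate 1 and 10.02 TPM in replicate 2, and the brown adipocyte markers Ucp1 and Cidea summed to 899 and 160.0 TPM. White adipocyte, epithelial, lymphocyte and macrophage markers all passed 1 TPM in both libraries. Of 18573 genes with at least 10 counts over both, 17.8% had a count ratio between the replicates whose 95% interval lay wholly beyond 2-fold. That interval, an exact Clopper-Pearson interval on counts scaled by library total, covers counting error only. In bulk tissue, fewer cells of a type and less RNA per cell cannot be told apart.

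Of the 3 genes, Nnt kept a substantial message, Tpsab1 a low one, and Pla2g2a had no fragment. Nnt (ENSMUSG00000025453, chr13:119335448-119408997, minus strand) stood at 21.2 and 14.2 TPM, a mean of 17.7 ± 4.94 TPM (SD, n = 2). The authors' intervals of 20.3 to 21.8 TPM and 13.4 to 14.8 TPM did not overlap, with replicate 1 the higher. These bounds were treated as a score and not as a measure of error. From 2955 and 1410 counts, Nnt had a log2 count ratio (replicate 2 over replicate 1) of -0.66, with a 95% interval of -0.75 to -0.57, against a median of -0.14 over all genes compared. Of the 2 members with counts, 0 lay wholly beyond 2-fold, where 17.8% of all genes did. The muscle and brown fat markers given above were also lower in replicate 2, and their part in the Nnt difference was not tested.

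Tpsab1 (ENSMUSG00000024173, chr17:25343245-25345562, minus strand) stood at 1.53 and 1.40 TPM, a mean of 1.47 ± 0.0919 TPM (SD, n = 2), from 85 and 52 counts. The authors' intervals, 1.22 to 1.90 TPM and 1.04 to 1.84 TPM, overlapped over most of their length. Its log2 count ratio was -0.30 with an interval of -0.83 to 0.22 that includes 0, so a difference between the replicates was not detectable at this depth. Pla2g2a (ENSMUSG00000058908, chr4:138831857-138835186, plus strand) had 0 counts in both libraries. At its length, 3 counts would have been 0.159 and 0.225 TPM, and a level below that can leave no count. The authors' intervals, which start above 0 even without a read, were 0.0377 to 0.485 TPM and 0.0486 to 0.679 TPM.

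**Figure D1:**
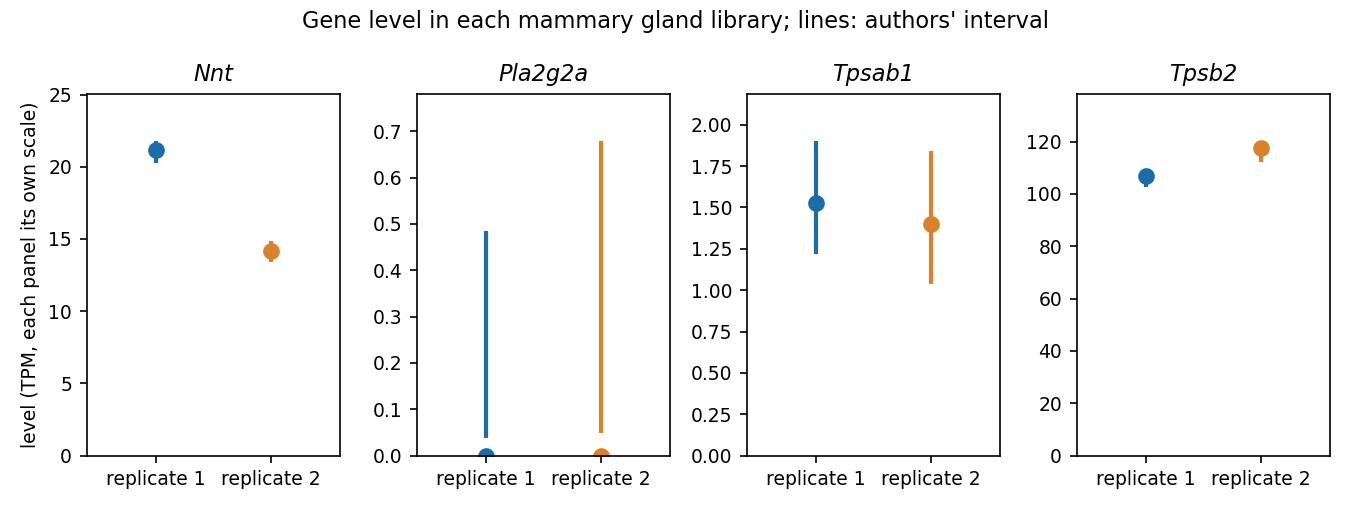
Level of Nnt, Pla2g2a, Tpsab1 and the paralog Tpsb2 in each library (points, TPM, a separate scale per panel) with the authors' interval (lines). The Nnt intervals do not overlap between the replicates, those of Tpsab1 do, and Pla2g2a lies at 0 with upper bounds of 0.485 and 0.679 TPM.

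Placed among the 13272 protein-coding genes with a mean of at least 1 TPM, Nnt was above 54.6% of them, close to their median of 14.6 TPM. Tpsab1 was above 4.40% of them. Both ranks are descriptions of these 2 libraries. Counted over all 21474 protein-coding genes, silent ones included, Nnt was above 72.0% and Tpsab1 above 40.9%.

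The nearest measured genes on each side had levels of their own. Beside Nnt, the growth factor gene Fgf10 stood at 8.98 and 6.57 TPM and Paip1, a gene of a poly(A)-binding protein partner, at 19.2 and 13.5 TPM. In TPM both were lower in replicate 2, as Nnt was, but the counts of Paip1 were 737 and 686. Pla2g2a lies inside the span of Pla2g5, a related secreted phospholipase on the opposite strand, which stood at 3.55 and 5.02 TPM. The nearest measured genes outside that pair, Gm25280 and Gm13030, had 0 counts in both libraries. On chromosome 17, Tpsab1 lies 20743 bases from Tpsb2 and 15719 bases from the processed pseudogene Gm5430, which had 5 and 1 counts. The reads were stranded, per the labels, but how strand was used in counting is not given in the sources used here.

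Nearly all of the Nnt level was assigned to Nnt-202, which joins exon 7 to exon 8 across the deletion, as Nnt-203 also does. Reads from exons that transcripts share also enter this assignment, so it does not show how often that join was made. The join itself had 4 reads in the pooled junctions given below. Nnt-202, with 17 exons, took 95.7% and 94.6% of the gene's TPM, at 20.3 and 13.4 TPM. Its reading frame was open for 835 codons. Nnt-203, which runs on past exon 14 and lacks the last exons, took 2.07% and 3.55%, at 0.44 and 0.50 TPM, with a frame of 713 codons. Nnt-201, which skips exons 8 and 9, took 1.78% and 1.65%, at 0.38 and 0.23 TPM. Exons 8 and 9 together have 342 bases, a multiple of 3, so that its frame runs for 721 codons. The retained-intron transcripts had few counts, Nnt-204 with 2.21 and 0 and Nnt-205 with 4.46 and 1.13. Coding transcripts by the annotation took 99.7 ± 0.177% of the gene (SD, n = 2), in both libraries with Nnt-202 first. Nnt-204 ends with exon 5 and Nnt-205 with exon 4, so reads from later exons could only be assigned to coding transcripts. The share therefore follows largely from the annotation and does not show how much of the message was coding.

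The Tpsab1 level was assigned to both of its transcripts. Reads from stretches that the transcripts share also enter this assignment, so it does not show which joins were made. In the pooled junctions given below, the exon 2 to exon 3 join of the 5-exon form had 0 reads. The exon 1 to exon 3 join of the 2-exon form had 0 as well. The 5-exon transcript (ENSMUST00000153118), with a frame of 310 codons, took 55.0% and 65.8% of the TPM, at 0.84 and 0.92 TPM. The 2-exon transcript (ENSMUST00000146856) took 45.0% and 34.2%, at 0.69 and 0.48 TPM. The second of its exons runs from exon 3 through the following introns, and its frame ends after 80 codons. By counts, which are not corrected for length, the longer 2-exon transcript had 50.8 and 25.3 fragments and the 5-exon transcript had 34.2 and 26.7. Which transcript was ahead therefore turned on whether length was corrected for in replicate 1. Both are annotated as coding in GENCODE M21, whereas the RefSeq gene table (GRCm38.p6) lists Tpsab1 as a transcribed pseudogene.

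All 4 transcripts of Pla2g2a had 0 counts in both libraries. Pla2g2a-203, which keeps the 4 bases, reached a stop after 68 codons from the annotated start. Pla2g2a-201, which leaves them out as a gap between exons of 122 and 20 bases, had a frame of 145 codons. With no read, neither model could be tested by these data. RefSeq lists the gene as a transcribed pseudogene and GENCODE M21 as a polymorphic pseudogene.

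**Figure D2:**
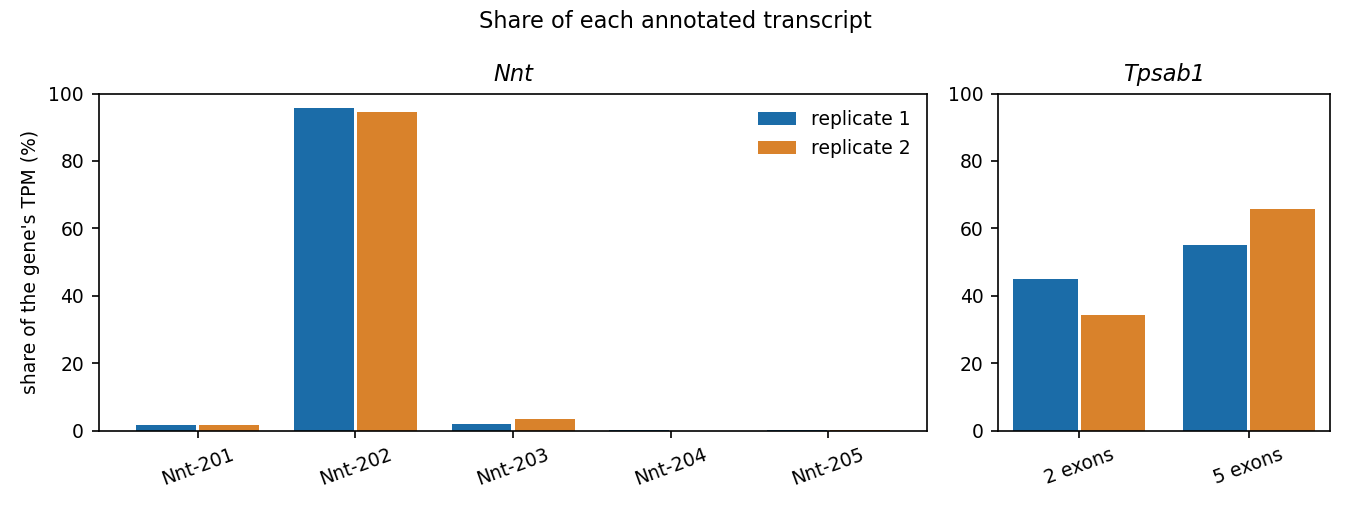
Share of the gene's TPM (percent, as deposited) assigned to each annotated transcript of Nnt and Tpsab1 in replicates 1 and 2. Nnt-202 takes 95.7% and 94.6% of Nnt, while the Tpsab1 level is assigned to both of its 2 transcripts. Shares are assignments and do not show which joins were made.

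Splice junctions were deposited once for the whole series on the older build mm9, so they carry no replicate spread here. The genes were located there by runs of introns with exactly the annotated lengths, which matched all 16 introns of Nnt-202, 3 of 4 of the 5-exon Tpsab1 and all 4 of Tpsb2. For comparison, no other place on the same chromosome and strand matched more than 1 intron of any of these. Pla2g2a could not be located in this way, since no run of more than 1 intron matched. Each junction carries a score of unstated meaning, and only scores under 0.1 counted as supported.

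In Nnt, the join across the deletion had the fewest reads of all 16 introns. The exon 7 to exon 8 join, printed first above (mm9 chr13:120163582-120170482), had 4 reads and a score of 0.409. The other 15 joins had 22 to 646 reads and scores of 0.02 or less. Upstream of the deletion, introns 1 to 6 had 22 to 76 reads with a median of 37. Downstream, introns 8 to 16 had 75 to 646 reads with a median of 120, the highest being exon 12 to exon 13 with 646, exon 11 to exon 12 with 421 and exon 9 to exon 10 with 269.

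The join from exon 7 to exon 10, the mark of Nnt-201, had 3 reads and a score of 0.409. Of the 7 reads leaving exon 7 by an annotated join, 4 went to exon 8, a share of 57.1% with an exact 95% interval of 18.4% to 90.1%. These counts are too few to order the 2 joins, although Nnt-202 was given most of the gene's level. Seen from exon 10, 3 of 272 reads entering it by an annotated join came from exon 7 (1.10%, interval 0.228% to 3.19%). The other 269 came from exon 9, while the exon 7 to exon 8 join had 4 reads. The share is therefore not a rate of skipping among messages that cross the deletion. With 1 further read on an unannotated join close to the exon borders, 8 reads in all crossed the deletion. There were 13 unannotated junctions within Nnt, each with 1 to 3 reads and together with 22, against 2239 on the annotated introns of Nnt-202.

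Contigs, the authors' stretches of continuous coverage with a signal of unstated unit, were lower before the deletion than directly after it. Over exons 1 to 7 the contig signal was 1.01 to 4.05 with a median of 2.49. Over exons 8 to 13 it was 9.77 to 26.4 with a median of 19.1, and the ranges did not overlap. Exons 14 to 17 had 0.898 to 15.8. The lowest of these, exon 15, lies in a contig of 2440 bases that is mostly intron. Other contigs also run well beyond their exon. Before the deletion, exon 1 (95 bases, signal 1.01) lies in one of 532 bases and exon 6 (89 bases, signal 1.3) in one of 231. After it, exon 12 (180 bases), with the highest signal of 26.4, lies in one of 397. In the junction reads the 2 sides overlapped, since the exon 8 to exon 9 join had 75 reads and the highest upstream join had 76. The cause of the difference in contig signal was not tested. No stretch of 76 bases, the read length, in any Nnt transcript occurred in an annotated transcript of a gene with another symbol, on either strand. GENCODE M21 lists a second entry under the symbol Nnt (ENSMUSG00000116207, transcript Nnt-206), not used here, which holds 96.3% of the stretches of Nnt-202.

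**Figure D3:**
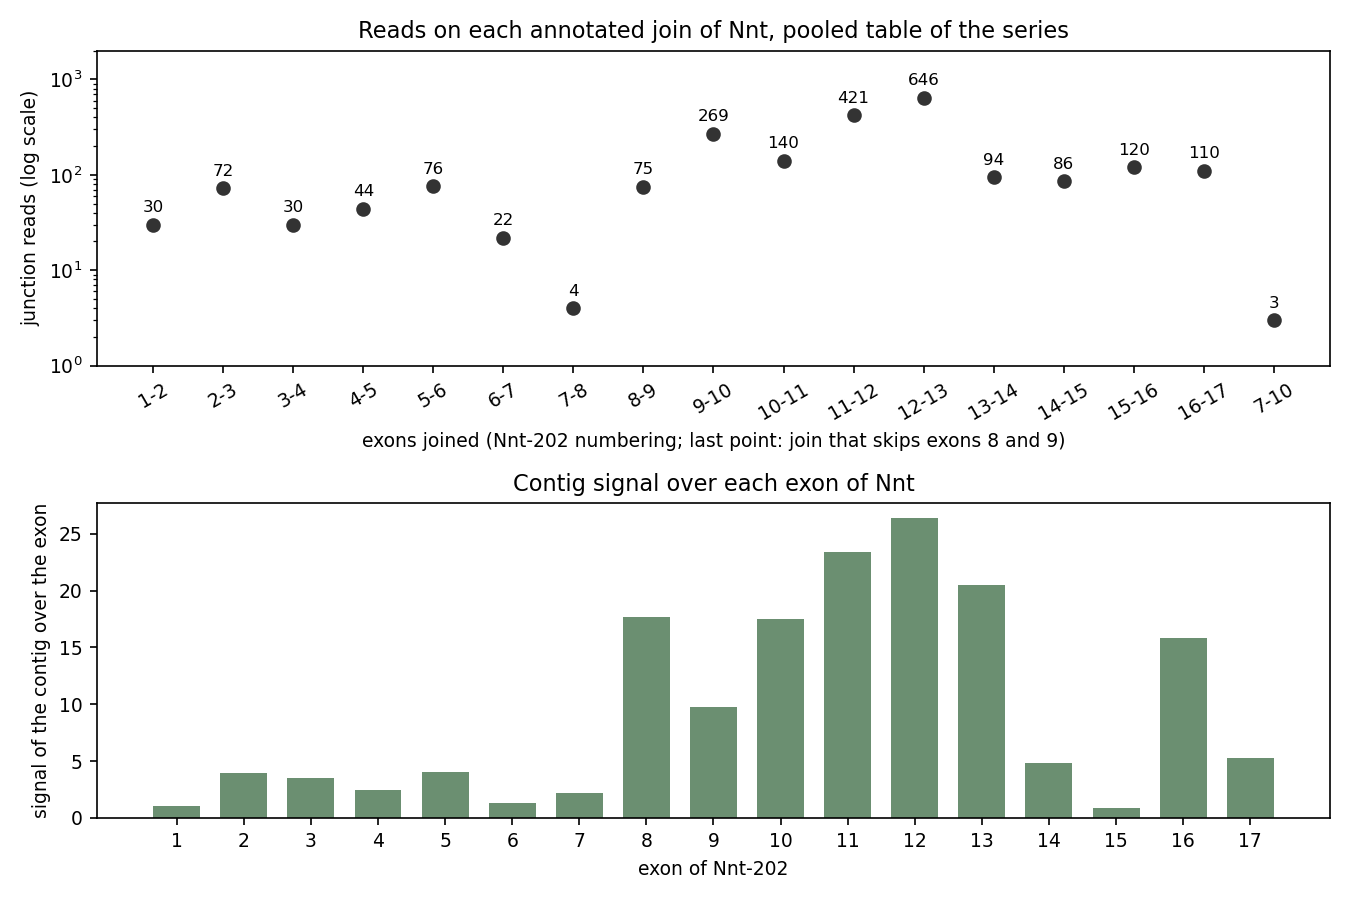
Reads on each annotated join of Nnt (upper panel, log scale, pooled table of the series) and signal of the contig over each exon (lower panel, linear scale, unit not stated). The exon 7 to exon 8 join has 4 reads against 22 to 646 on the others, and exons 8 to 13 lie above exons 1 to 7.

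In Tpsab1, no read followed the annotated join out of exon 2. Exon 1 to exon 2 had 15 reads, exon 3 to exon 4 had 2 and exon 4 to exon 5 had 6. The annotated exon 2 to exon 3 join had 0 of the 12 reads entering exon 3, a count whose exact 95% interval reaches 26.5%. Of these 12 reads, 4 left from inside exon 2, 98 bases before its end and directly before the GTGAG printed above (33.3%, exact interval 9.92% to 65.1%). The other 8 left from 40 bases beyond the end of the exon (66.7%, interval 34.9% to 90.1%). The join from exon 1 to exon 3 that defines the 2-exon transcript also had 0 reads, although that transcript was assigned 50.8 and 25.3 fragments.

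Both sites replace the annotated exon 2 of 166 bases by one of 68 or of 206 bases. Neither 98 nor 40 is a multiple of 3. Exon 2 cut short at 68 bases gave a frame of 83 codons, against 310 codons as annotated. The frame of the longer form could not be read, since its added bases lie in an intron. The evidence for each is thin. The 8 reads beyond the exon had a score of 0.842 and were all under the code R1, whereas the 4 reads inside it had a score of 0.409 with 2 under each of R1 and R2. What these codes stand for is not given in the sources used here. Under the score limit of 0.1, only the exon 1 to exon 2 join of Tpsab1 remained.

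The paralog Tpsb2 used its annotated exon 2 to exon 3 join almost throughout. Of 1100 reads entering exon 3 at its start, 1082 followed that join (98.4%, exact interval 97.4% to 99.0%). Another 21 reads, not among the 1100, ran from the end of exon 2 to a site 84 bases inside exon 3, with a score of 0.014. From the position 98 bases inside exon 2, Tpsab1 drew 33.3% of the reads entering its exon 3, against 1.36% in Tpsb2, from 15 reads (interval 0.765% to 2.24%). Both exons hold the letters GTGAG there. The 2 intervals did not overlap, but they cover counting error only, reads without molecular identifiers are not independent molecules, and the difference was not tested over samples. From 40 bases beyond the exon Tpsb2 had 0 of the 1100 reads, with an exact interval up to 0.335%. Exon 2 of Tpsab1 and of Tpsb2 both have 166 bases, of which 133 are identical (80.1%). No stretch of 76 bases was common to a Tpsab1 transcript and an annotated transcript of any other gene, and the longest identical run of the 2 exons had 38 bases.

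**Figure D4:**
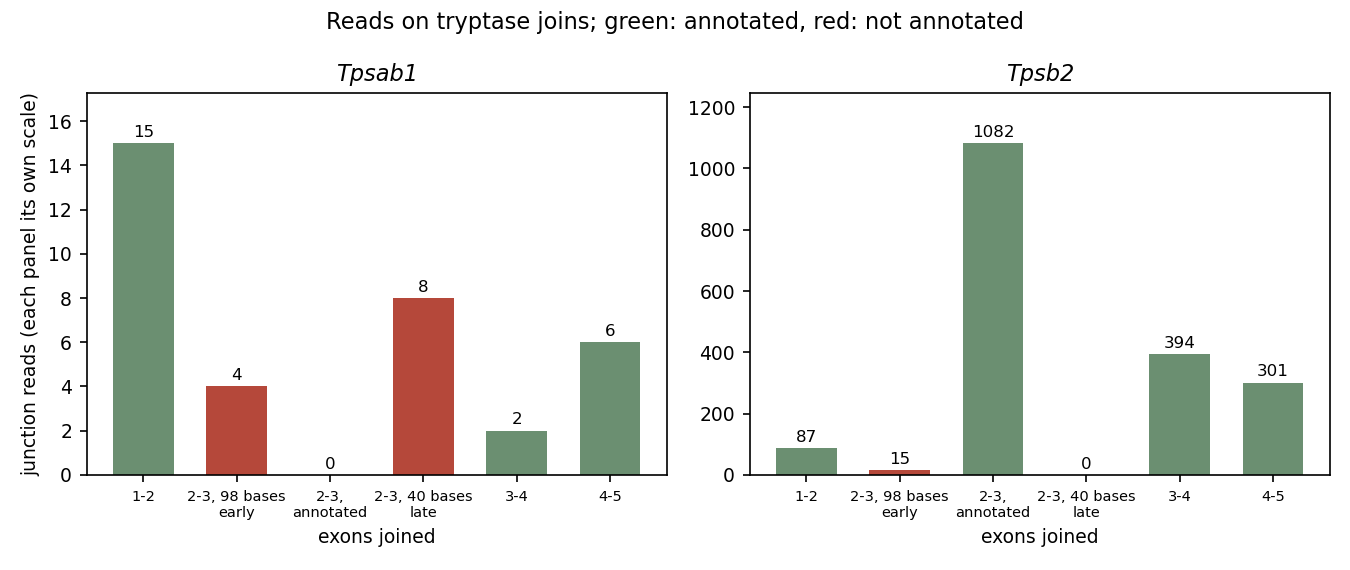
Junction reads of Tpsab1 (left) and its paralog Tpsb2 (right), each with its own linear scale, for annotated joins (green) and for joins from 98 bases before or 40 bases after the end of exon 2 (red). Tpsab1 has 4, 0 and 8 reads on the early, annotated and late joins, and Tpsb2 has 15, 1082 and 0.

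By level, Tpsab1 took 1.41% and 1.17% of the TPM that it and Tpsb2 had together. Tpsb2 (ENSMUSG00000033825, chr17:25366305-25369098, plus strand) stood at 107 and 118 TPM, above 91.1% of the expressed protein-coding genes. Contigs told the same order, with signals of 0.301 to 1.63 over the exons of Tpsab1 and 24.7 over a single contig of 2838 bases that covers Tpsb2. Among 8 genes of the tryptase locus and related serine proteases, 4 passed 1 TPM in both libraries, where 58.3% of all 21474 protein-coding genes did, so the list's share was near that of genes in general. After Tpsb2 came Tpsg1, a membrane-anchored tryptase, at 2.96 and 4.38 TPM, and Prss27 at 2.02 and 2.25 TPM. Prss28 and Prss29 had 0 counts in both.

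Other mast cell genes were detected in both libraries. Of 13 mast cell genes, 7 passed 1 TPM in both, again near the 58.3% of all coding genes, with the chymase gene Mcpt4 at 49.1 and 26.9 TPM, the granule proteoglycan gene Srgn at 31.2 and 35.4 TPM and the stem cell factor receptor gene Kit at 27.4 and 24.9 TPM. Srgn and Kit are also expressed outside mast cells. The 8 mast cell markers, Tpsb2 among them, summed to 237 and 195 TPM, and 6 of them passed 1 TPM in both. These 8 markers had a median log2 count ratio of -0.995, and the 9 of the 13 genes with enough counts one of -0.95, against the -0.30 of Tpsab1 and the -0.14 of all genes. The genes did not move as one, and the following were named after their values were seen. The carboxypeptidase gene Cpa3, at 18.2 and 6.03 TPM, had a ratio of -1.67 and lay wholly beyond 2-fold lower, where 9.8% of all genes did. The transcription factor gene Gata2, which is also expressed outside mast cells and is in the list of 13 but not among the markers, stood at 4.68 and 11.4 TPM. Its ratio of 1.21 (interval 1.06 to 1.35) lay wholly beyond 2-fold higher, where 8.02% did. Tpsb2 had a ratio of 0.06 and Srgn one of 0.03, with intervals that include 0. The chain genes of the high-affinity IgE receptor were low, Ms4a2 with 25 and 6 counts and Fcer1a with 13 and 3. Mcpt1 (3 and 0 counts) and Mcpt2, Mcpt8 and Mcpt9 (0 in both) were at or under the floor. How far the number of mast cells moved the level of Tpsab1 was not tested.

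Around Pla2g2a, the family of secreted phospholipases, with related lipases and a receptor, was partly expressed. Of 14 genes, 7 passed 1 TPM in both libraries, a share near the 58.3% of all coding genes. The highest were Pla2g12a at 27.4 and 62.2 TPM, Pla2g2d at 47.3 and 37.4 TPM and the lysosomal enzyme gene Pla2g15 at 19.9 and 22.9 TPM. Besides Pla2g2a, Pla2g10 had 0 counts in both libraries, and Pla2g1b, Pla2g2c and Pla2g12b had 0 counts in replicate 1 and 1 in replicate 2. In all, 5 of the 14 were at or under 3 counts in both libraries. The 9 with enough counts had a median log2 count ratio of 0.12, against -0.14 over all genes. Pla2g12a lay wholly beyond 2-fold higher in replicate 2, where 8.02% of all genes did. Pla2g2f (5.01 and 0.13 TPM), named after its values were seen, lay wholly beyond 2-fold lower, where 9.8% did. Of the Paneth cell and intestine markers, Defa24 and Fabp2 had 0 counts in both libraries and Mmp7 had 7 and 3. Lyz1, which is closely similar to the macrophage lysozyme gene Lyz2 (749.8 and 496 TPM), stood at 82.8 and 48.8 TPM, and its value is uncertain where the pair share reads.

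Around Nnt, a list of 10 genes of mitochondrial NADPH supply, Nnt included, had 9 that passed 1 TPM in both libraries, where 58.3% of all coding genes did. The list holds Aldh4a1, whose enzyme in proline breakdown is known to make NADH and not NADPH. Nnt was the fourth of the list by mean level, and the third without Aldh4a1. Above it stood the glutamate dehydrogenase gene Glud1 at 59.4 and 141.9 TPM, the isocitrate dehydrogenase gene Idh2 at 116 and 84.7 TPM and Aldh4a1 at 88.0 and 106.6 TPM. By counts, 1 of the 10, Glud1, lay wholly beyond 2-fold higher in replicate 2, where 8.02% of all genes did. The malic enzyme gene Me3 (22.2 and 1.84 TPM), named after its values were seen, was the 1 lower, where 9.8% of all genes were. All 10 genes of mitochondrial and related peroxide removal passed 1 TPM in both, led by the glutathione peroxidase genes Gpx1 at 757 and 1538 TPM and Gpx4 at 1027 and 1270.5 TPM and by the thioredoxin gene Txn2 at 211 and 304 TPM. All 6 genes of cytosolic NADPH supply did so too, led by the malic enzyme gene Me1 at 412 and 327 TPM, Pgd at 260 and 366 TPM and G6pdx at 161 and 111 TPM, the last 2 being enzymes of the pentose phosphate pathway. In neither of these 2 lists did a gene lie wholly beyond 2-fold between the replicates, where 17.8% of all genes did. The median log2 count ratio was -0.04 for mitochondrial NADPH supply, 0.17 for peroxide removal and -0.26 for cytosolic NADPH supply. With no strain that has an intact Nnt, these levels cannot be set against a tissue with the enzyme.

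Of 6 other genes with a described C57BL/6 variant, 3 passed 1 TPM in both libraries, against 58.3% of all coding genes. The list does not separate substrains, and whether each variant occurs in C57BL/6J was not checked. The antiviral GTPase genes Mx1 and Mx2 stood at 5.68 and 2.99 TPM and at 3.17 and 1.77 TPM, and the cadherin gene Cdh23 at 1.95 and 3.58 TPM. The melatonin synthesis gene Aanat (2 and 0 counts) and the retinal gene Crb1 (0 in both) were at or under the floor. Nlrp12, a gene of the NOD-like receptor family named after its values were seen, had 3 and 22 counts. Its log2 count ratio was 3.28 (interval 1.55 to 5.67). It was the 1 of the 4 genes with enough counts that lay wholly beyond 2-fold, where 17.8% of all genes did.

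**Figure D5:**
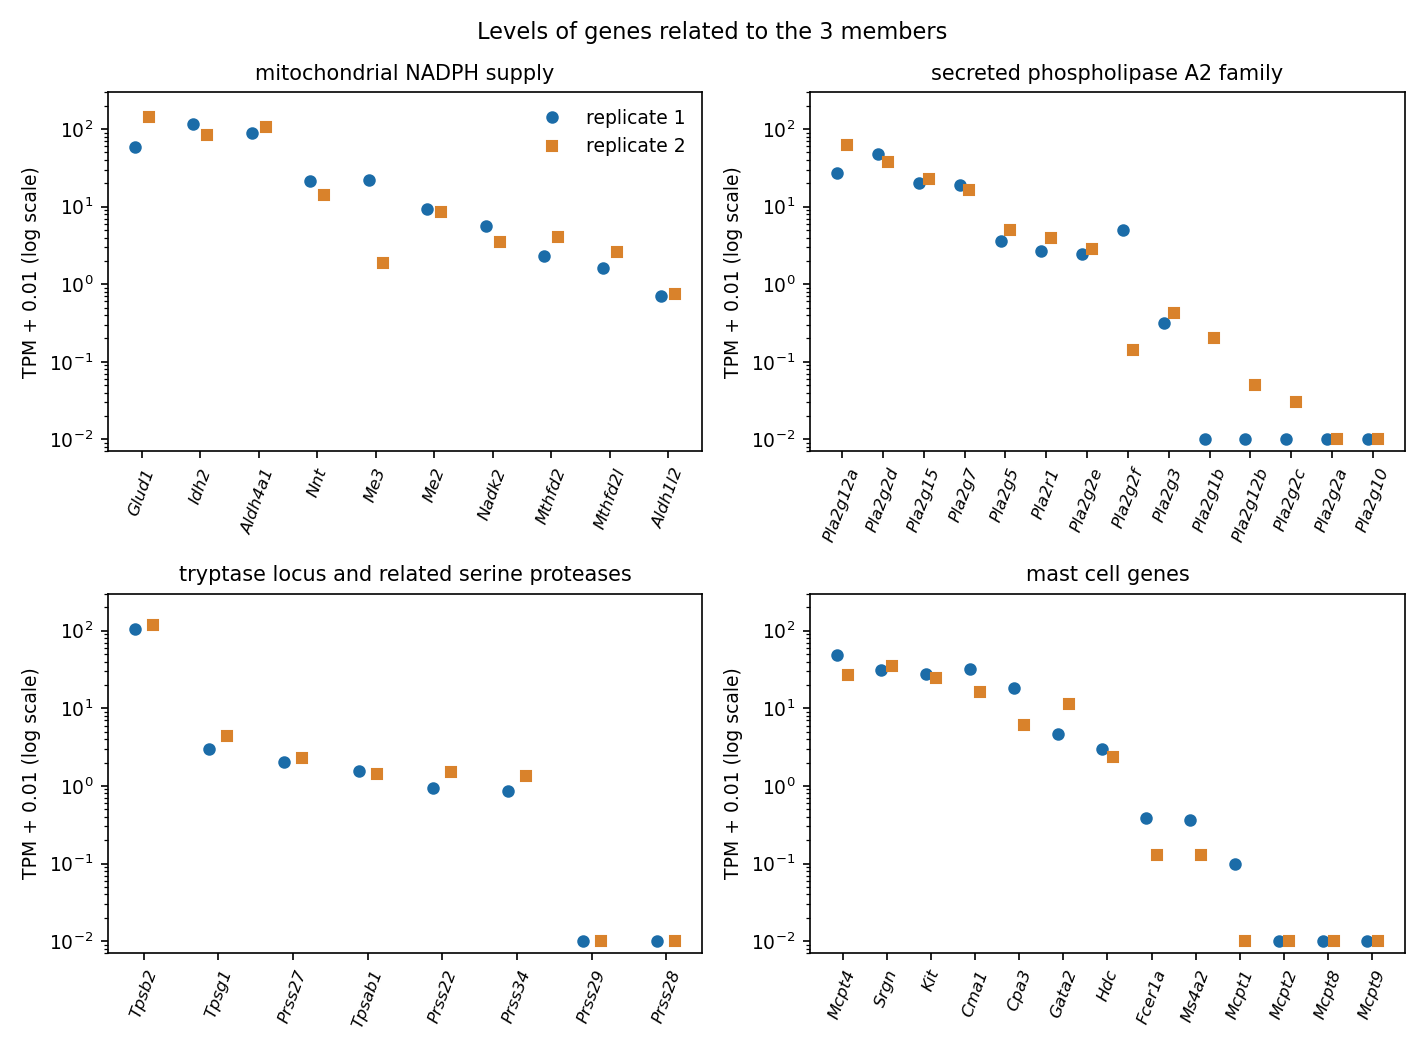
Levels of genes related to Nnt, Pla2g2a and Tpsab1 in replicates 1 and 2 (TPM + 0.01, log scale), ordered by mean level in each list; points on the lowest line are at 0 TPM. Nnt is the fourth of its list, Pla2g2a is among the 5 phospholipase genes at or under 3 counts, and Tpsab1 lies far below Tpsb2.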

How the data were processed

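The gene and transcript tables hold expected counts, TPM, FPKM and transcript shares (percent of gene TPM), as the authors deposited them, per the file headers, with lower and upper bounds of TPM, here treated as a score. Build mm10 and annotation GENCODE M4 are stated in text notes beside the tables, and the quantifier is not given in the sources used here. Junction read counts and scores and the contig signal were deposited by the authors on mm9, without headers. Expected counts were rounded for count ratios, and ratios have 95% Clopper-Pearson intervals that cover counting error only. In each table, 26345 entries that are not Ensembl genes were left out. Names, exons and sequences came from GENCODE M21, which named 42462 of 43346 genes, and all 11 transcripts of the 3 genes matched, the 2-exon Tpsab1 being 1928 bases there and 1927 in the table. Introns were matched to junctions by exact length, with no coordinate moved between builds. Reading frames were followed from the annotated start codon to the first stop. The ratio step was tested on simulated counts. The 3 genes and all lists were chosen with earlier results of these data known. Lists were described by counts at 1 TPM or more in both libraries, naming the 3 highest and those at or under 3 counts. No test was run between groups, since there is 1 group. Tools were R 4.3.3 (edgeR 4.0.16 and DESeq2 1.42.0 for scaling factors) and Python 3.11.15 (numpy 2.4.6, pandas 2.3.3, scipy 1.17.1, matplotlib 3.10.9).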

Additional observations from a re-analysis of the deposited data

How the results depend on the processing

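Of 79 values under other settings, 64 stayed within the limit for their kind and 15 did not. A change of direction was not scored for levels, shares or counts, and 0 of the replicate differences showed one. The limit was the SD of the replicates for a level or share, the reach of the counting interval for a replicate difference, and 1.5 times for a count of genes or introns. With 2 replicates, leaving 1 out cannot move a mean level or share beyond that SD. Those values therefore stayed within the limit by construction and say nothing about stability. Leaving out each replicate in turn gave 14.2 to 21.2 TPM for Nnt, 1.40 to 1.53 TPM for Tpsab1 and 0 for Pla2g2a, shares of 94.6% to 95.7% for Nnt-202 and 55.0% to 65.8% for the 5-exon Tpsab1. Posterior mean TPM put Pla2g2a at 0.29 although it has no count, and Nnt-202 at 93.6%. In FPKM, Tpsab1 was 1.08. The log2 count ratio of Nnt, -0.66 with library totals, was -0.58 with TMM and -0.53 with size factors, the last outside its counting interval. By expected counts in place of TPM, the 5-exon Tpsab1 took 45.8% of its gene, behind the 2-exon form. With all junctions in place of those with a score under 0.1, introns of the 5-exon Tpsab1 with a junction numbered 3 in place of 1, and those of Nnt-202 16 in place of 15. The count of genes beyond 2-fold, 3310 of 18573, became 1258 at 3-fold, 3330 with no filter, 3280 with TMM and 3302 with size factors. Replicate differences have no leave-one-out form. No paired analysis was possible because both libraries belong to 1 group. With 2 libraries the SD is itself uncertain, and the 12 reads entering exon 3 of Tpsab1 and the 8 crossing the Nnt deletion limit every share drawn from them.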
